A study of Mus musculus with 2 samples.

Results

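Interferon-induced macrophages were defined in these data as the cells of a macrophage gate in which a set of 4 interferon-induced genes stood highest. The gate took cells with a value above 0 for Csf1r, the receptor for macrophage colony-stimulating factor, and a value of 0 for Cd3d, Cd3e, Cd3g, Ncr1, Flt3 and Cd209a, which mark T cells, NK cells and dendritic cells. In each gated cell the mean normalized value of 6 sets of 4 genes was taken and turned into a z-score over all gated cells, and the cell was given to the set with the highest z-score. The sets included F10, Clec4d and Il1rn (F10 and Clec4d), Mgl2, H2-Eb1, H2-Ab1 and H2-DMb1 (Mgl2 and MHC class II), Fcrls, Folr2, Cbr2 and Gas6 (Folr2 and Fcrls), Hp, Chil3, Ifitm6 and Vcan (Chil3 and Vcan), Mki67, Birc5, Cdk1 and Ccna2 (cycling), and Rsad2, Ifit2, Ifit3 and Oasl1. The interferon-induced macrophages were thus chosen by their measured values of these genes relative to the other sets. Of 10075 cells analysed, 2954 passed the gate and 508 were interferon-induced macrophages, 312 from the wild-type (WT) library and 196 from the Siah2-/- library.

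The cells came from YUMMER1.7 melanomas grown under the skin for 11 days in male C57BL/6 mice, aged 8 weeks, that were WT or lacked Siah2, the gene of a RING finger ubiquitin ligase. The tumor line was the same in both hosts, so the genotype was that of the host. Live CD45+ leukocytes were sorted from the tumors, a smaller number of sorted CD45- cells was added back, and 1 droplet library (10x Genomics 3′ chemistry, which counts unique molecular identifiers, UMIs) was made per genotype. Genotype, tumors, suspension and library therefore cannot be told apart, no test between genotypes was possible, and all intervals below cover counting error only. Those of shares and genes are exact 95% intervals, and those of lists are medians of the bounds of their genes.

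Type I interferons are cytokines that nearly every cell can make when nucleic acids reach its cytosol or endosomes. They bind the receptor formed by IFNAR1 and IFNAR2 and act through a complex with STAT2 and IRF9 that binds the interferon-stimulated response element (ISRE) before genes such as Rsad2, the Ifit genes and Isg15. Interferon gamma, made mainly by T cells and NK cells, acts on an overlapping set of genes that includes the Gbp and Irg GTPases, Cxcl9 and MHC genes.

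Promoters of genes that stood highest in these cells and hold the ISRE core are shown so that it can be read in them. The sequences are those of RefSeq on GRCm38.p6, 200 bases 5′ to 3′ on the gene's strand and ending just before the annotated start of transcription. Capitals mark GAAANNGAAA or its other strand TTTCNNTTTC, and overlapping matches run into 1 stretch.
Rsad2: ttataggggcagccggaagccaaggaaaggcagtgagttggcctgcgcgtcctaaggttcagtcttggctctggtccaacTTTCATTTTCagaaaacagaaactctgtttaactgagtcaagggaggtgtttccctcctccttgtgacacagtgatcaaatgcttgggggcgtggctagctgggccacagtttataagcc
Ifit3: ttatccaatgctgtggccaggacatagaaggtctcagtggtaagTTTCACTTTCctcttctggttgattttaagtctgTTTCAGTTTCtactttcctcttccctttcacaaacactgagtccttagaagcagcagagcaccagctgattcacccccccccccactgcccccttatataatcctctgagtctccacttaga
Ifit3b: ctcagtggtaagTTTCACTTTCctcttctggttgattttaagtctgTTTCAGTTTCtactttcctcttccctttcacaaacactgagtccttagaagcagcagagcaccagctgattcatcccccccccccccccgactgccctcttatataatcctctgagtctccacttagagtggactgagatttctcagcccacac
Ifit1: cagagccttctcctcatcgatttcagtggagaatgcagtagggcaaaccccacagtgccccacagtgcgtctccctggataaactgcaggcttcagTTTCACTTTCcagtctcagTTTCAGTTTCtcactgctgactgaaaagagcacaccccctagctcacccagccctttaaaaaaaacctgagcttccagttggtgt
Isg15: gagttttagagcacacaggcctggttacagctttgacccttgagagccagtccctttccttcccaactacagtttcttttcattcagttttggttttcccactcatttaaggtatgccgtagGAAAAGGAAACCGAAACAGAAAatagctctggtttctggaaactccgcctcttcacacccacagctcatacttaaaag
Rsad2 encodes viperin, an antiviral radical SAM enzyme, and its window lies at chr12:26456453-26456652 on the minus strand, with 1 match that began 120 bases before the start. The Ifit windows lie on the plus strand of chromosome 19, at chr19:34583329-34583528 (Ifit3), chr19:34607757-34607956 (Ifit3b) and chr19:34640689-34640888 (Ifit1), and each held 2 matches. They began 156 and 122 bases before the start in Ifit3, 188 and 154 in Ifit3b, and 104 and 85 in Ifit1. Ifit3 and Ifit3b are near-identical neighbours, so the counts of each are uncertain. The Isg15 window, at chr4:156200819-156201018 on the minus strand, held 3 overlapping matches, at 78, 72 and 66 bases.

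Over the windows of 250 bases before to 50 bases after each start, the core occurred in 3.44% of all 32851 windows and in 3.99% of the 27025 genes with a window. Of the 66 type I interferon response genes listed outside the rule, 50 had a window and 26 of these (52%) held it. It was found in 12 of 20 interferon gamma-type genes with a window (60%), in 5 of 19 MHC class I genes (26.3%), and in none of 16 glycolysis genes. Of the 20 genes that stood highest in the class, 14 had a window and 7 of these (50%) held it, and the letters were not in the window of Cmpk2. Among the 4 rule genes it was found for Rsad2 and Ifit3, and these letters were not in the windows of Ifit2 and Oasl1. Mx1, Usp18, Pydc3, Gm13713, BC094916 and Cd69 had no window in the table.

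The rule genes lie in a few loci. Ifit2 (chr19:34550694-34576419), Ifit3 (chr19:34583531-34588731), Ifit1bl1 (chr19:34592891-34601956), Ifit3b (chr19:34607970-34613401) and Ifit1 (chr19:34640871-34650009) stand side by side on GRCm38. Rsad2 (chr12:26442746-26456452) neighbours Cmpk2 (chr12:26469204-26479837), a mitochondrial nucleotide kinase. Oasl1 (chr5:114923240-114937915) neighbours Oasl2 (chr5:114896936-114912234), both of the family related to oligoadenylate synthetases.

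Interferon-induced macrophages made up 18.75% of the WT gate (312 of 1664 cells, interval 16.9% to 20.7%) and 15.2% of the Siah2-/- gate (196 of 1290 cells, 13.3% to 17.3%), a log2 ratio of −0.30 (−0.57 to −0.04). This was the smallest shift of the 6 sets. The F10 and Clec4d set took 5.47% of the WT gate and 33.1% of the Siah2-/- gate, and the Folr2 and Fcrls set took 16.3% and 0.930%. Since each cell goes to its highest set, a share also depends on the other 5 sets. With z-scores taken within each library the shares were 17.1% and 16.1%. Of all cells analysed, interferon-induced macrophages were 6.91% (6.19% to 7.69%) in WT and 3.52% (3.05% to 4.04%) in Siah2-/-, a log2 ratio of −0.97 (−1.24 to −0.71). The gate itself was 36.9% of WT and 23.2% of Siah2-/- cells, a log2 ratio of −0.67, and its share depends on the sort and on the cells added back.

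**Figure D1:**
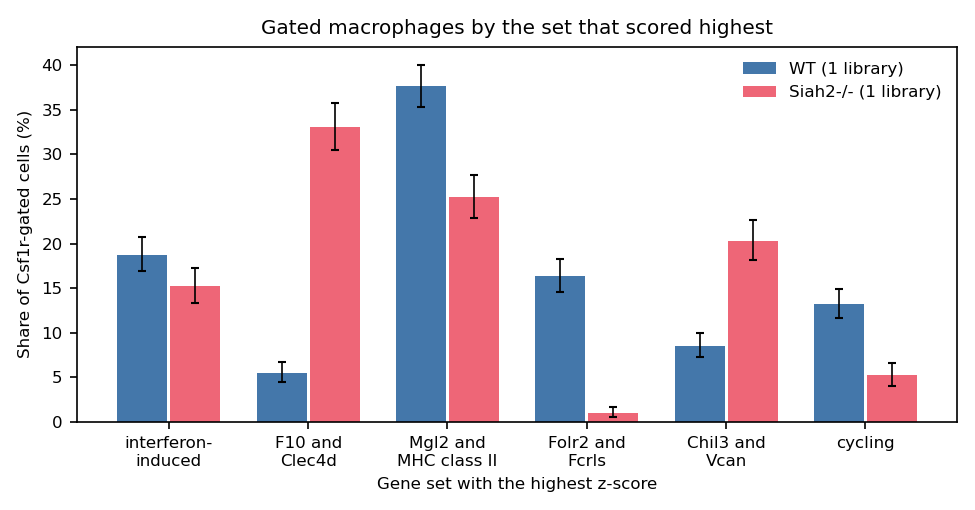
Bars give the share (%, vertical axis, from 0) of Csf1r-gated cells whose highest z-score fell in each of 6 gene sets, for the WT library (1664 gated cells) and the Siah2-/- library (1290), with exact 95% binomial intervals. The interferon-induced set stood at 18.75% and 15.2%, while the F10 and Clec4d bar was far higher in Siah2-/- and the Folr2 and Fcrls bar far higher in WT.

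The class was set by a score, so it is a range with cells near its limit. For 89 of the 508 cells the z-score of the interferon set exceeded that of the next set by less than 0.25, and 98 other gated cells missed the class by less than 0.25. The cell just inside had a z-score of 0.5439 against 0.5435 for the Folr2 and Fcrls set, and the cell just outside had 0.776 against 0.777 for the Mgl2 and MHC class II set. All 4 rule genes were detected in 374 interferon-induced macrophages and also in 167 gated cells given to other sets, and 10 cells entered the class with an interferon z-score below 0. The set with the next highest score was Mgl2 and MHC class II in 173 WT cells (55.4%) and 77 Siah2-/- cells (39.3%). It was F10 and Clec4d in 7.05% and 23.98%, and Chil3 and Vcan in 14.7% and 25.0%. By this score a larger share of the interferon-induced macrophages of Siah2-/- than of WT stood nearest to the F10 and Clec4d or the Chil3 and Vcan set.

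The cells carried the markers of macrophages. All 11 macrophage markers were detected in both libraries, Csf1r by the gate and Mertk in only 14.7% and 10.2% of cells. Detection meant at least 1 UMI in the class, which all fibroblast markers also met. The summed level of the macrophage markers was 37390 UMIs per 1000000 UMIs (CPM) in WT and 29069 in Siah2-/-, against 42306 and 35168 in the other gated cells. Monocyte markers, which macrophages from monocytes share, summed to 4590 and 6830 CPM against 2518 and 5084 in the other gated cells. The plasmacytoid dendritic list summed to 1439 and 1318 CPM against 983 and 669, of which Bst2, itself induced by interferon, made 1324 and 1215 CPM and Tcf4 112 and 99.0, while the defining Siglech was at 0 in both libraries. The part of such cells in the results was not tested. The 5 T cell markers in the files summed to 5.03 and 7.22 CPM, with Cd3d, Cd3e and Cd3g at 0 by the gate, and the 5 NK markers to 55.0 and 174 CPM. The conventional dendritic list summed to 130 and 19.1 CPM against 47.2 and 15.7 in the other gated cells, with 37.4% of the WT sum from 1 cell and Flt3 and Cd209a at 0 by the gate. The fibroblast list summed to 225 and 175 CPM, against 294 and 33.4 in the other gated cells. At least 3 markers of another cell type were seen in 17 WT and 10 Siah2-/- cells of the class, and results that changed sign without such cells are named.

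The depth behind the class was 3380720 UMIs in WT and 1939560 in Siah2-/-, and the median cell held 9559 and 8273 UMIs, against 10411 and 8304.5 in the other gated cells. The cells kept by the authors began at 6670 UMIs in WT and at 4896 in Siah2-/-. The libraries shared 34 cell barcodes, 1 of them in an interferon-induced macrophage of each. Siah2 itself gave 40 UMIs in WT interferon-induced macrophages (11.8 CPM) and 19 in Siah2-/- ones (9.80 CPM), and 11.8 and 14.1 CPM in the other gated cells. The 3′ tags need not cover the deleted part of the gene, so they do not check the genotype.

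The 4 rule genes chose the cells, so their levels are a description. Rsad2 stood at 678 CPM in WT and 995 in Siah2-/- interferon-induced macrophages, against 63.3 and 102 in the other gated cells. Ifit3 stood at 1313 and 1587 CPM against 172 and 143, Ifit2 at 390 and 520 against 54.9 and 52.1, and Oasl1 at 311 and 337 against 51.6 and 41.3. The IFIT proteins bind viral RNA or act in complexes that do, and OASL1 restrains the translation of Irf7. For Rsad2 the next highest cells were those of the Chil3 and Vcan set, at 176 and 216 CPM. Barcodes with at most 100 UMIs, taken as empty droplets, held Rsad2 at 84.8 and 105 CPM. Genes of other cells varied in their level in the gate against that in empty droplets. In the WT library Mlana, a melanocyte gene, was at 0.181 CPM in the other gated cells and 187 in empty droplets, and Col1a2, a collagen gene of fibroblasts, at 176 and 216. The part of free RNA in the levels of the rule genes was not tested.

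**Figure D2:**
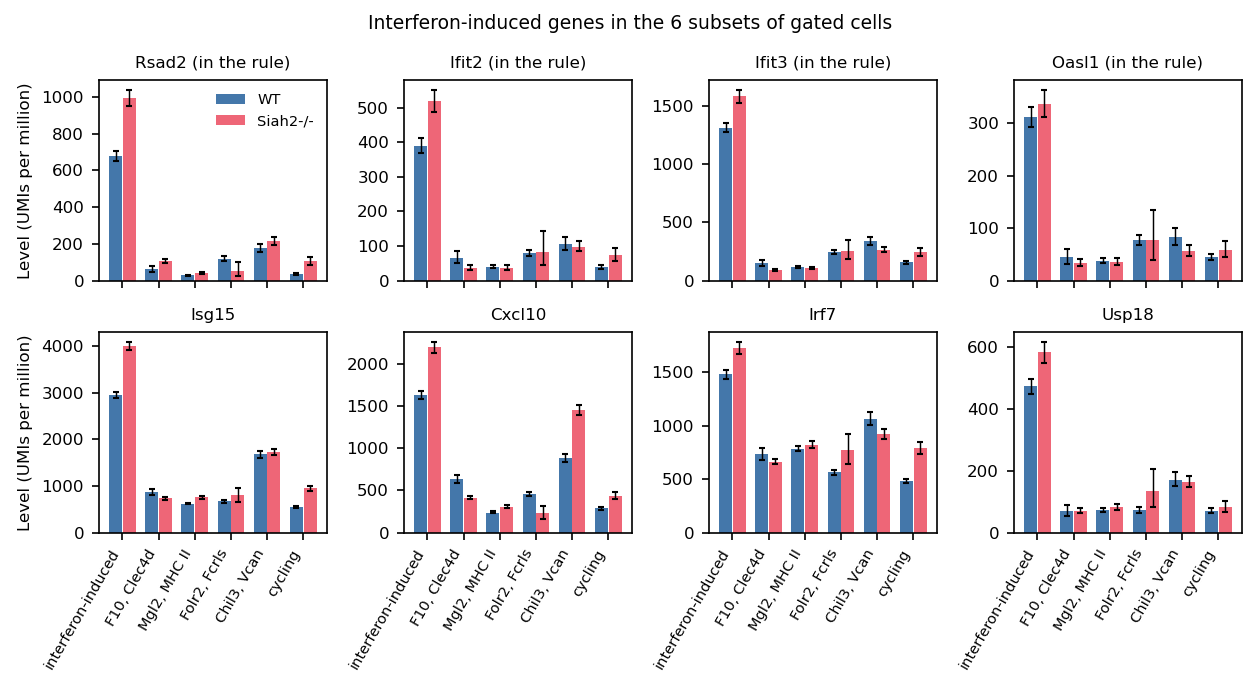
Level (CPM, vertical axis, from 0) of 4 rule genes and of Isg15, Cxcl10, Irf7 and Usp18 in the 6 subsets of gated cells, with WT in blue, Siah2-/- in red and exact 95% Poisson intervals. All 8 genes stood highest in the interferon-induced cells, and the Chil3 and Vcan cells came next for Isg15 (1682 and 1728).

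The type I interferon response outside the rule stood high with the rule genes. Of 66 listed genes 59 were in the files and 57 had at least 50 UMIs. In WT, 47 of 57 were at least 2-fold higher in interferon-induced macrophages than in the other gated cells, with a median log2 ratio of 1.34, where 2.53% of all 10073 genes were that much higher and 5.02% that much lower. In Siah2-/-, 43 of 57 were at least 2-fold higher, with a median of 1.21, against 3.46% of 8756 genes higher and 2.99% lower. All 57 had an interval above 0 in both libraries. The list summed to 26975 CPM in WT and 31084 in Siah2-/- interferon-induced macrophages. The Chil3 and Vcan cells came next, at 21095 and 20955 CPM, and the remaining sets lay at 9988 to 13672 CPM. The 57 genes were correlated with the 4 that chose the cells, so the counts describe the class and do not test it.

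Isg15, a ubiquitin-like protein that is joined to other proteins and also secreted, was the most abundant of the strongly changed genes. It stood at 2953 CPM in WT interferon-induced macrophages against 707 in the other gated cells (log2 ratio 2.06, 2.02 to 2.10), and at 4015 against 936 in Siah2-/- (2.10, 2.06 to 2.14). Ifit1bl1 had the largest smaller ratio of the libraries, 3.66 and 3.59, and Cmpk2 had 3.0 and 3.27. Ifit1, whose product binds RNA that lacks 2′-O methylation of its cap, had 2.98 and 3.37. Mx1, a dynamin-like GTPase, had 2.68 and 2.64. Usp18, which removes ISG15 from proteins and blocks IFNAR2 signalling, had 2.57 and 2.64. At the low end, Ly6e had 0.39 in both libraries, from 2107 to 2757 CPM in WT and from 1893 to 2473 in Siah2-/-, and Ifi27l2a had 0.65 and 0.78. Ly6e and Ifi27l2a were thus abundant throughout the gate, while Ifit1 stood at 86.5 and 88.8 CPM in the other gated cells. In the Chil3 and Vcan cells Ifi27l2a stood at 3317 CPM in WT and 3425 in Siah2-/-, against 3124 and 3600 in the class.

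**Figure D3:**
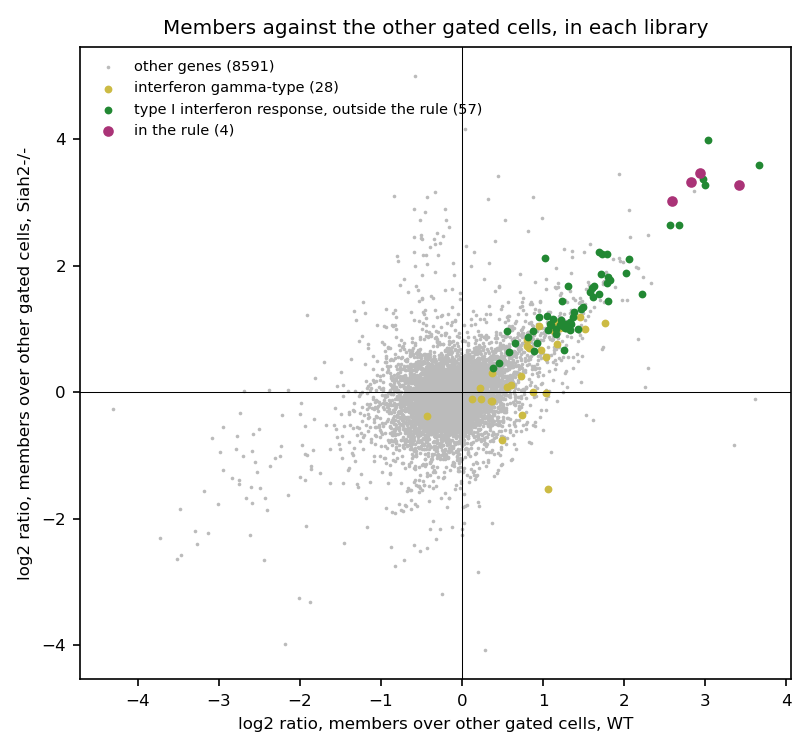
Each point is a gene with at least 50 UMIs in both comparisons, with its log2 ratio of interferon-induced macrophages over the other gated cells in WT (horizontal) and Siah2-/- (vertical), a gene without UMIs on 1 side being drawn at its bound against a floor of 3 counts. The 57 type I genes outside the rule (green) all lie above 0 on both axes, the 4 rule genes (purple) at their upper end, and the interferon gamma-type genes (yellow) nearer to 0 with some below it in Siah2-/-.

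Among genes that were on no interferon list or are known also for other roles, several stood with them. Tnfsf10 encodes TRAIL, a death receptor ligand, and stood at 24.3 CPM in WT and 27.8 in Siah2-/- interferon-induced macrophages against 3.32 and 3.08 in the other gated cells, with log2 ratios of 2.87 (2.36 to 3.39) and 3.17 (2.52 to 3.85). Cxcl10, a ligand of CXCR3 that attracts T cells and NK cells, stood at 1634 against 368 CPM in WT and 2203 against 560 in Siah2-/- (2.15 and 1.98). The Chil3 and Vcan cells alone held Cxcl10 at 884 and 1456 CPM. Cd69, an early activation antigen that restrains S1PR1, had 2.17 and 1.97, and Il15, which sustains NK cells and CD8 T cells, had 1.56 and 1.75. Cxcl9, the other main CXCR3 ligand, did not stand apart: it was at 395 against 339 CPM in WT (0.22) and 472 against 453 in Siah2-/- (0.06). Pydc3 (2.30 and 2.48), Gm13713 (2.07 and 2.46), Ddx4 (2.06 and 2.88), BC094916 (1.99 and 2.05), Gm13822 (1.95 and 2.08) and Rilpl1 (1.94 and 3.45) completed the 20 highest genes, and none of these 6 had over 10.2% of its UMIs in the class in 1 cell.

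Interferon gamma-type genes followed less. In WT, 10 of 28 were at least 2-fold higher in interferon-induced macrophages, beside 2.53% of all genes, with a median log2 ratio of 0.82. In Siah2-/-, 6 of 29 were, beside 3.46% of all genes, with a median of 0.30, and 1 was at least 2-fold lower, beside 2.99%. The list summed to 5346 CPM in WT and 6658 in Siah2-/- interferon-induced macrophages, and to 5535 and 6457 in the Chil3 and Vcan cells. Socs1, a feedback inhibitor of JAK kinases, had 1.77 and 1.09, and Iigp1, an Irg GTPase, had 1.15 and 1.10. Gbp2, a guanylate-binding protein, had 0.73 and 0.25, since it stood at 883 CPM in the other gated Siah2-/- cells against 337 in WT. It was highest in the Chil3 and Vcan cells, at 1140 and 1737 CPM, against 560 and 1050 in the class. Nos2, the inducible nitric oxide synthase, turned from 1.06 in WT to −1.53 in Siah2-/-, where the F10 and Clec4d cells held it at 107 CPM. The MHC class I list had medians of 0.37 and 0.13, with H2-T22, a nonclassical class I gene, at 0.92 and 0.85 and B2m at 0.22 and 0.11.

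The sensing and signalling genes of the pathway were higher in the class in part. Of 20 nucleic acid sensing genes, 6 in WT and 5 in Siah2-/- were at least 2-fold higher, beside 2.53% and 3.46% of all genes, with medians of 0.69 and 0.71. The sensing list summed to 3724 CPM in WT and 4378 in Siah2-/- interferon-induced macrophages. It was no lower in the Chil3 and Vcan cells, at 3930 and 4798 CPM. Ifih1 (MDA5), a sensor of long double-stranded RNA, had 1.80 and 1.82, Ddx58 (RIG-I) 1.79 and 1.72, and Tlr3 1.22 and 1.56. Unc93b1, which carries Toll-like receptors to endosomes, had 0.17 and 0.04. Irf7, the transcription factor that amplifies interferon production, stood at 1483 CPM against 680 in WT (1.12) and 1729 against 776 in Siah2-/- (1.16). Stat2 had 1.19 and 1.73.

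The receptors did not differ by as much. Ifnar1 stood at 102 CPM in WT interferon-induced macrophages and 92.3 in the other gated cells, and at 76.8 and 78.2 in Siah2-/-. Ifnar2 stood at 112 and 104, and at 135 and 152. Ifngr1 was lower in the class, at 205 against 240 CPM in WT (−0.23) and 221 against 318 in Siah2-/- (−0.52), and Ifngr2 had 0.11 and −0.15. Il10rb, a subunit of the interferon lambda receptor, had −0.07 and −0.16, and Ifnlr1, the other subunit, gave 1 UMI in WT and 0 in Siah2-/-.

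The interferon genes themselves were nearly undetected. Ifnb1 gave 4 UMIs in 3 WT interferon-induced macrophages and 0 UMIs in the 1352 other gated WT cells. In Siah2-/- it gave 0 UMIs in interferon-induced macrophages and 2 in the 1094 other gated cells, and in cells with a CD3 gene it gave 4 UMIs in WT and 2 in Siah2-/-. A further 5 UMIs came from 1 of the 635 remaining WT cells. Ifna1, Ifna2, Ifna4, Ifna5, Ifne, Ifnk, Ifnl2 and Ifnl3 gave no UMI in the class, for which the exact upper bounds were 1.09 CPM in WT and 1.90 in Siah2-/-. Ifng gave 9 UMIs in WT and 19 in Siah2-/- interferon-induced macrophages (2.66 and 9.80 CPM), against 129 and 211 CPM in cells with a CD3 gene and 88.9 and 191 CPM in empty droplets, and the part of free RNA was not tested. The level of Ifng in the other gated cells was 2.17 and 9.54 CPM, and its intervals overlapped those of the class (1.22 to 5.05 in WT, 5.90 to 15.3 in Siah2-/-).

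Genes that were lower in interferon-induced macrophages were led by S100a9 (log2 ratios of −3.52 and −2.63) and S100a8 (−3.30 and −2.20), the calprotectin subunits of neutrophils and early monocytes, and by mitosis genes. Cenpf had −3.47 and −2.58, Prc1 −3.73 and −2.30, Nusap1 −3.27 and −2.40, Spc25 −2.44 and −2.65, Kif20b −2.61 and −2.25 and the histone gene Hist1h2ae −3.14 and −2.22. Each had at most 12 UMIs in the class in either library, other than S100a8 with 33 and S100a9 with 13 in Siah2-/-. The cycling cells were a set of their own in the rule, so low mitosis genes follow from it. Ccl24, an eosinophil chemokine, had −2.19 and −3.97 from 3 UMIs in each library. Of 12 resident macrophage genes, 5 in WT and 1 in Siah2-/- were at least 2-fold lower, beside 5.02% and 2.99% of all genes, with medians of −0.66 and −0.33. Pf4 had −1.40 and −1.20, F13a1 −1.63 and −0.90, and Stab1 −1.13 and −0.74, while C1qa had −0.01 and 0.01. The 11 monocyte genes, outside the rule but for F10, were mixed, with medians of 0.12 and 0.19, 6 and 7 intervals above 0 and 4 below 0 in each library. Ly6c2 (1.17 and 0.88), Ms4a4c (1.16 and 0.99) and Plac8 (1.03 and 0.56) were higher in the class, and Fn1, fibronectin (−0.74 and −0.43), was lower. Ly6c2 and Ms4a4c are also known to answer interferon. Chil3 was 239 CPM in the WT class and 419 in the Siah2-/- class against 3201 and 4083 in the Chil3 and Vcan cells.

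The level of the response varied within the class, which is a description, since the rule used the same 4 genes and the lists move with them. Cells were divided into 3 groups of near equal size by their mean value of the 4 rule genes. The summed level of the type I list outside the rule was 20795, 27034 and 34016 CPM from the lowest to the highest group in WT and 22964, 28112 and 44258 in Siah2-/-, against 12551 and 13947 in the other gated cells. The interferon gamma-type list rose over the same groups from 4384 to 7102 CPM in WT and from 5440 to 8587 in Siah2-/-. Median UMIs per cell fell from 9927 to 9117 and from 9005 to 7624 over these groups, and the part of depth was not tested.

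The Siah2-/- and WT libraries were then compared within interferon-induced macrophages. Of 6758 genes with at least 50 UMIs, 142 (2.1%) were at least 2-fold higher in Siah2-/- and 95 (1.41%) at least 2-fold lower. Differences in genes of the other sets were narrowed by the rule, which kept out cells in which those sets stood highest. The other gated cells mixed those sets in shares that differed between the libraries. The part of this mix in their ratios and medians was not tested. With 1 library a genotype, no size of difference can be set against the spread between animals.

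The type I interferon genes differed little between the libraries. Over 57 genes the median log2 ratio of Siah2-/- over WT was 0.20 (median interval bounds 0.01 to 0.37), 0.23 in the other gated cells, and −0.03 over all genes. Of these genes 29 had an interval above 0 and 5 below, and 1 was at least 2-fold higher, beside 2.1% of all genes. This gene, Ifi205, belongs to the IFI200 family of DNA-binding proteins and stood at 216 CPM in WT and 465 in Siah2-/- (1.11, 0.96 to 1.25). It fell to 0.91 over all barcodes of at least 1000 UMIs, and to 0.69 among cells whose next set was Mgl2 and MHC class II. Samd9l (12.7 and 24.7 CPM, 0.96) and Slfn4 (68.6 and 126 CPM, 0.88) came next. Isg15 was 2953 and 4015 CPM (0.44, 0.40 to 0.49), Ifi27l2a 3124 and 3600 (0.20) and Ly6e 2757 and 2473 (−0.16). Of the rule genes Rsad2 had 0.55, Ifit2 0.41, Ifit3 0.27 and Oasl1 0.12.

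The libraries were also compared by the set with the next highest score. Among cells whose next set was Mgl2 and MHC class II (173 WT, 77 Siah2-/-), the median ratio of the type I list was −0.09 and its summed level 27804 CPM in WT and 26256 in Siah2-/-. Among the remaining cells (139 and 119) the median was 0.44 and the summed levels were 26039 and 34619 CPM. This division was made after the results were seen. It uses genes of the rule, and the remaining cells mixed 4 next sets in different shares between the libraries, so what set the values apart was not tested.

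**Figure D4:**
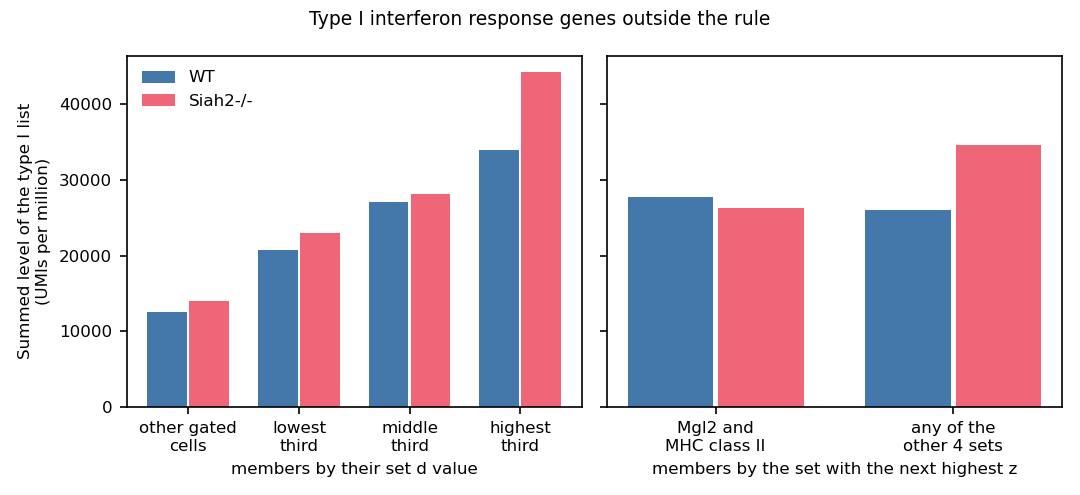
Summed level (CPM, vertical axes, from 0) of the type I interferon list outside the rule in the other gated cells and in 3 groups of the interferon-induced macrophages by their mean rule gene value (set d in the axis label, left), and in those cells by the set with the next highest z-score (right), WT in blue and Siah2-/- in red, without error bars. The level rose over the groups in both libraries, to 34016 and 44258, and where the next set was not Mgl2 and MHC class II the libraries stood at 26039 and 34619.

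Interferon gamma-type genes had a median log2 ratio of 0.38 in interferon-induced macrophages (0.13 to 0.58) and of 0.55 in the other gated cells. At least 2-fold higher in Siah2-/- were 4 of 29, beside 2.1% of all genes. Tgtp1, an Irg-related GTPase with a near-identical copy in Tgtp2, went from 5.62 to 21.1 CPM (1.91, 1.09 to 2.78). Nos2 went from 6.80 to 17.5 CPM (1.37), though among cells whose next set was Mgl2 and MHC class II it had 0.13. Upp1 went from 60.05 to 126 CPM (1.07) and Cd274, which encodes PD-L1, from 62.1 to 124 (1.00). Gbp2 stood just under, at 560 and 1050 CPM (0.91). Cxcl9 was 395 and 472 CPM (0.26, 0.13 to 0.38) and Socs1 159 and 215 (0.44). In the other gated cells Nos2 had 3.96, Cd274 1.86, Gbp2 1.39 and Socs1 1.11, each larger than in the interferon-induced macrophages. Those cells mixed the other sets in shares that differed between the libraries, and the part of this was not tested. Gbp2 was 559 CPM in WT and 902 in Siah2-/- F10 and Clec4d cells, and 315 and 559 in Mgl2 and MHC class II cells. It was 1140 and 1737 in Chil3 and Vcan cells, 195 and 211 in Folr2 and Fcrls cells, and 201 and 444 in cycling cells.

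Genes of antigen presentation hardly moved. Over 23 MHC class I genes the median was 0.16, with B2m at 10077 and 10926 CPM (0.12), H2-K1 at 0.10 and H2-D1 at 0.17. Erap1, the peptidase that trims peptides for class I, was the 1 gene at least 2-fold lower, beside 1.41% of all genes. It had 70 UMIs in WT and 18 in Siah2-/- (−1.16, −1.99 to −0.39). Over 8 MHC class II genes outside the rule the median was −0.01, and Cd74, the invariant chain, was 23914 and 22881 CPM (−0.06). In the other gated cells that median was 0.36. H2-Oa was at least 2-fold higher (15.1 and 34.0 CPM), with 25.5% and 25.8% of its UMIs in 1 cell. Of the costimulatory genes, Cd86 had 0.33 and Cd40 −0.02. Cd80 gave 15 and 20 UMIs, under the minimum of 50.

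**Figure D5:**
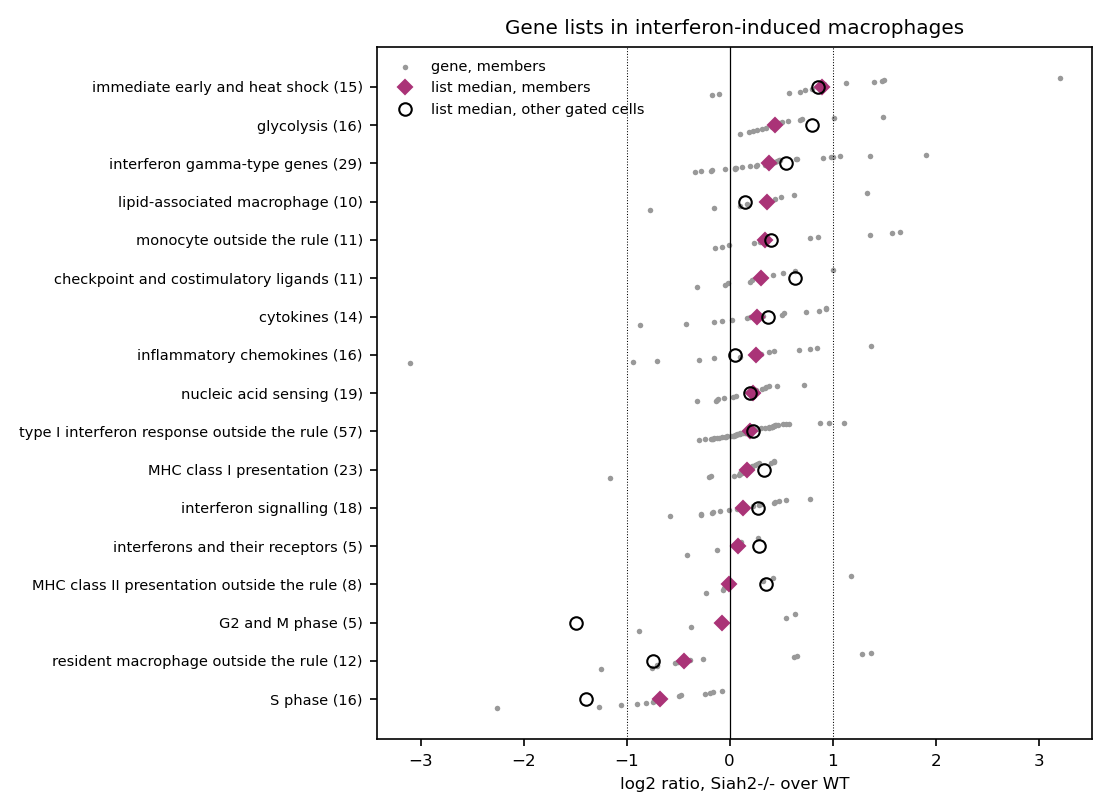
Horizontal axis, log2 ratio of Siah2-/- over WT. Grey points are genes of each list with at least 50 UMIs in interferon-induced macrophages (number in brackets), diamonds the list medians in these cells and open circles the medians in the other gated cells, with dotted lines at 2-fold and Ccl17 left out because it had no UMI in Siah2-/-. The type I list lies near 0 with both medians together (0.20 and 0.23), while glycolysis (0.44 and 0.80) and S phase (−0.68 and −1.40) lie nearer to 0 in the interferon-induced macrophages than in the other gated cells. The other gated cells mixed sets in shares that differed between the libraries, and the part of this was not tested.

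Of 16 inflammatory chemokines 1 was at least 2-fold higher in Siah2-/-, beside 2.1% of all genes. At least 2-fold lower were 2, beside 1.41%, and the median of the list was 0.25. The higher was Ccl8, a chemokine for monocytes, at 49.1 and 127 CPM (1.37), with 45.5% of its Siah2-/- UMIs in 1 cell. Its ratio fell under 2-fold in 5 alternatives, to 0.10 with cells thinned and to −0.13 with z-scores within each library. Ccl12, a ligand of CCR2, was lower in Siah2-/- at 2354 and 1224 CPM (−0.94, −1.01 to −0.88). Ccl5 was 1087 and 1863 (0.78) and Cxcl10 1634 and 2203 (0.43, 0.37 to 0.49). Ccl17 and Ccl22, ligands of CCR4, gave 161 and 60 UMIs in WT and 0 and 4 in Siah2-/-. Ccl17 had a log2 ratio of −4.94 or lower against a floor of 3 counts in Siah2-/-, and Ccl22 had −3.11 (−5.03 to −1.67). In WT, 61.5% of the Ccl17 UMIs and 55.0% of the Ccl22 UMIs came from 1 cell. Ccr7 (128 and 7 UMIs, −3.39) and Fscn1 (287 and 28 UMIs, −2.56), which with Ccl22 are high in mature dendritic cells, went with them. Without cells that held at least 3 markers of another cell type, Ccr7 had 3.41 and Fscn1 0.73, and Fscn1 also had 0.62 with cells thinned to 4896 UMIs each. Ccl22 had −2.57 without other-marker cells and −0.52 (−3.99 to 2.28) with cells thinned. The bound for Ccl17 was −4.91 and −2.26 in the same alternatives.

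Glycolysis genes had a median of 0.44 (0.30 to 0.57) in interferon-induced macrophages and 0.80 in the other gated cells. All 16 genes had a ratio above 0 in both. The list summed to 8194 CPM in WT and 10919 in Siah2-/- interferon-induced macrophages. It summed to 13649 and 16552 in the F10 and Clec4d cells and to 7905 and 10809 in the Mgl2 and MHC class II cells. The sums were 11673 and 11562 in the Chil3 and Vcan cells, 6276 and 9366 in the Folr2 and Fcrls cells, and 7205 and 10089 in the cycling cells. Pgk1, which makes the first ATP of glycolysis, went from 75.1 to 211 CPM (1.49, 1.26 to 1.72) and Slc16a3, the lactate exporter, from 120 to 242 (1.01, 0.82 to 1.21). Slc16a3 fell to 0.37 over all barcodes of at least 1000 UMIs. Gapdh had 0.43, Pkm 0.48 and Ldha 0.10. With z-scores taken within each library the median was 0.73, and over all barcodes of at least 1000 UMIs it was 0.26. Of 14 cytokines none passed 2-fold, with a median of 0.26. Il1b went from 760 to 1455 CPM (0.94) and Osm from 110 to 210 (0.93), while Tnfsf13b (BAFF) fell from 29.3 to 16.0 (−0.87).

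The other lists of the pathway moved little. Over 18 signalling genes the median ratio of Siah2-/- over WT was 0.13 and none passed 2-fold, with Stat2 highest at 82.2 and 141 CPM (0.78). Over 19 nucleic acid sensing genes it was 0.23, again with none past 2-fold. Of the receptors, Ifnar1 had −0.41 (−0.70 to −0.13), Ifnar2 0.28 and Ifngr1 0.11.

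Resident macrophage genes were mixed, with a median of −0.44 over 12 genes outside the rule and of −0.75 in the other gated cells. Of the 12, 6 had intervals below 0 and 4 above 0. At least 2-fold lower in Siah2-/- was 1, beside 1.41% of all genes, and at least 2-fold higher were 2, beside 2.1%. The higher were Ccl8, described above, and F13a1, a coagulation factor subunit, at 21.6 and 52.6 CPM (1.28). Apoe was 12984 and 7696 CPM (−0.75), C1qa 5359 and 3291 (−0.70) and C1qb 5485 and 3884 (−0.50). Cx3cr1, the fractalkine receptor, was 132 and 55.7 (−1.25, −1.56 to −0.94). Olfml3 (97.9 and 22.2 CPM, −2.14), Fcrls (27.8 and 3.61, −2.95) and Prune2 (18.3 and 4.12, −2.15) were among the 12 lowest genes. Fcrls is a rule gene of another set. Monocyte genes had a median of 0.34, with Plac8 at 2248 and 3856 CPM (0.78), Thbs1 at 37.6 and 96.4 (1.36) and F10 at 12.4 and 39.2 (1.66). F10 was also a gene of the rule. Ly6c2 was 1688 and 2071 CPM (0.29), and over all barcodes of at least 1000 UMIs it turned to −0.22. Mrc1 had 48.8 and 40.7 CPM.

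Of the genes farthest from 0, some came from few cells. Plet1 (4 and 49 UMIs, 4.42) had 98.0% of its Siah2-/- UMIs in 1 cell, and Cyr61 (24 and 54 UMIs, 1.97) 81.5%. All 119 WT UMIs of Retnla (−5.09) came from 1 cell, as did 91.6% of the 419 WT UMIs of Gzmc (−2.10). Gzma (2.08), Klrd1 (2.12) and Ctla2a (1.92) are genes of NK cells and T cells. Their levels in the class were 92.3, 56.7 and 32.5 CPM in Siah2-/-, against 1304, 488 and 490 in empty droplets of that library, and the part of free RNA was not tested. With cells thinned to 4896 UMIs each, Klrd1 had 0.87 and Ctla2a 0.72. Over the 18 alternatives the ranges were 0.87 to 5.19 for Klrd1, 0.72 to 3.165 for Ctla2a and 1.53 to 4.93 for Gzma. Hcar2, a receptor for ketone bodies and niacin, went from 4.73 to 19.1 CPM (2.01) and B3gnt5 from 5.62 to 21.7 (1.95), and Slpi, a protease inhibitor, from 21.6 to 127 (2.56), with 32.0% of its Siah2-/- UMIs in 1 cell. Slpi kept its sign at 1.13 to 4.24 over the 18 alternatives, of which 7 moved it beyond its interval. Gm9844 had 2.15. Among the lowest were also Plat (57 and 5 UMIs, −2.71), Col5a2 (50 and 6, −2.26) and Uhrf1 (50 and 6, −2.26). Without other-marker cells Plat turned to 0.34 and Col5a2 had −0.17, and over all barcodes of at least 1000 UMIs Uhrf1 had −0.60. Uhrf1, with Tyms (−1.27) and Hells (−1.05), was 1 of 3 of 16 S phase genes at least 2-fold lower, beside 1.41% of all genes. The S phase median was −0.68 against −1.40 in the other gated cells, whose share of cycling cells differed between the libraries. In the cycling cells themselves the S phase list summed to 1634.1 CPM in WT and 1404.5 in Siah2-/-.

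Immediate early and heat shock genes, which rise in cells under stress and during tissue digestion, were higher in Siah2-/- by a median of 0.89 over 15 genes, with 5 of them at least 2-fold higher, beside 2.1% of all genes. Hspa1a went from 15.7 to 144 CPM (3.20, 2.78 to 3.66), Dusp1 from 450 to 1190 (1.40), Klf2 from 40.8 to 115 (1.5), Klf4 from 27.8 to 77.3 (1.48) and Atf3 from 132 to 288 (1.13). Fos was 1269 and 2353 CPM (0.89). The median was 0.86 in the other gated cells, so the shift was shared by the gate, and its part in the other differences between the libraries was not tested.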

How the data were processed

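The deposited data were a UMI count matrix per library over all barcodes, made by the authors with Cell Ranger on mm10 per the submitters' processing notes (its version is not stated there), and tables of counts and of normalized values for the cells the authors kept. The deposited normalized values were natural log values, ln(1 + UMIs per 10000 UMIs of the cell), and were recomputed from the counts to within 0.0005001. Gate and z-scores used these values, and levels are UMIs summed over cells per 1000000 (CPM). How many tumors went into each library was not stated.

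Ratios entered with at least 50 UMIs over both sums. Shares have exact Clopper-Pearson intervals, sums exact Poisson intervals, and ratios exact conditional binomial intervals at 95%. List intervals are medians of the gene bounds. With 1 library per genotype no test was run, and "at least 2-fold" is a rule of size. The code was tested on simulated data. Python 3.11.15, numpy 2.4.6, scipy 1.17.1 and pandas 2.3.3 were used. The members and lists were chosen with earlier results of these data known. Genes were named as the 20 highest and 10 lowest by the smaller ratio of both libraries for the class, the 12 highest and 12 lowest between genotypes, and from the lists. Some genes that this names are not reported here. Genes singled out beyond these were chosen after their values were seen. No doublet caller was run: the gate removed cells with T cell, NK or dendritic markers, and leaving out the 5% of gated cells with most UMIs was an alternative. Copies such as Ifit3 and Ifit3b, Tgtp1 and Tgtp2, and the Ifi200 and H2-Q and H2-T families may share reads. Alternatives changed the choice of cells, depth, free RNA, filters and centring.

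Lists described by class against other gated cells only in part above had these median log2 ratios in WT and Siah2-/-: interferons and receptors 0.11 and −0.15, signalling 0.53 and 0.22, inflammatory chemokines 0.22 and −0.10, cytokines 0.56 and 0.10, MHC class II outside the rule 0.21 and −0.08, checkpoint and costimulatory ligands 0.40 and −0.01, glycolysis 0.07 and −0.23, lipid-associated macrophage −0.47 and −0.24, S phase −0.54 and 0.04, G2 and M phase −2.58 and −1.21, and immediate early and heat shock −0.16 and 0.02.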

Additional observations from a re-analysis of the deposited data

Results flagged for a closer look

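Flagged were 5 genes whose ratio of Siah2-/- over WT had opposite signs in interferon-induced macrophages and in the other gated cells. These differences were not tested. Ccl8 had a log2 ratio of 1.37 in the class and −1.03 in the other gated cells. Ccr7 had −3.39 and 0.81. Cyr61 had 1.97 and −3.61. Gzmc had −2.10 and 1.62. Retnla had −5.09 and 2.26. In each, between 40.6% (Ccr7, WT) and 100% (Retnla, WT) of the UMIs on the higher side of the class came from 1 cell. Other genes also had opposite signs and were not flagged, such as Ifit3b with 0.47 in the class and −0.48 in the other gated cells.

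Barcodes outside the cells the authors kept also met the rule. Among those with at least 1000 UMIs and at most 10% mitochondrial UMIs, 227 of 1012 gated WT barcodes (22.4%, 19.9% to 25.1%) and 48 of 374 gated Siah2-/- barcodes (12.8%, 9.62% to 16.7%) were of the interferon-induced class. Their summed level of the type I list was 42192 CPM in WT against 17718 in the other such gated barcodes, and 36182 against 15143 in Siah2-/-.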

How the results depend on the processing

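Of 18 alternatives, 2 were chosen after seeing the data: leaving out gated cells with at least 3 markers of another cell type, and keeping only cells whose next set was Mgl2 and MHC class II. The share ratio was −0.46 to −0.08 over the 11 alternatives that could change it, the type I median of the class over other gated cells was 1.26 to 1.5 in WT and 1.19 to 1.35 in Siah2-/- over 17, and the Siah2-/- over WT medians were 0.17 to 0.45 for interferon gamma-type genes and 0.07 to 0.24 for MHC class I. The type I median of Siah2-/- over WT was at most 0.27, and turned to −0.085 with the next set Mgl2 and MHC class II. Glycolysis moved to 0.73 with z-scores within each library, 0.59 with cells thinned to 4896 UMIs, 0.26 over barcodes of at least 1000 UMIs and 0.29 with that next set. The number of genes at least 2-fold lower in Siah2-/- was 186 with z-scores within each library, 56 with an interferon z-score of at least 1, 61 over barcodes of at least 1000 UMIs, 145 without the 5% of cells with most UMIs, 300 with a minimum of 20 UMIs, 18 with 200, and 50 with that next set. The number higher was 266 and 57 with minimums of 20 and 200. These counts follow the number of genes or cells entered for the last settings, and otherwise the cause was not tested.

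Of 30 named genes with at least 50 UMIs and at least 2-fold apart between the libraries, 17 were no longer so in at least 1 alternative. Those that kept their sign included Ccl22 (−0.52), Klrd1 (0.87) and Ctla2a (0.72, all thinned), Tgtp1 (0.99) and Nos2 (0.13, both with the next set Mgl2 and MHC class II), Retnla (−0.46, the same), Col5a2 (−0.17, without other-marker cells), Ifi205 (0.69, next set Mgl2 and MHC class II), Cx3cr1 (−0.97), Slc16a3 (0.37) and Uhrf1 (−0.60, all over barcodes of at least 1000 UMIs). Oasl1, Mrc1, Siah2 and Mki67, whose reported intervals held 0, had either sign (−0.096 to 0.21 for Oasl1). Genes whose reported intervals left out 0 changed sign as follows. Ccl8 had −0.13 with z-scores within each library, and Plet1 −1.32 with an interferon z-score of at least 1. Cyr61 had −1.11 thinned and −0.32 without the 5% of cells with most UMIs. Fscn1 had 0.62 thinned, 0.73 without other-marker cells and 0.13 with the next set Mgl2 and MHC class II. Ly6c2 had −0.22 over barcodes of at least 1000 UMIs and −0.13 with that next set, where Ifit3 had −0.20 and Plat 1.13. Without other-marker cells Ccr7 had 3.41 and Plat 0.34. No paired analysis was possible because each genotype was 1 library, and for the same reason no replicate could be left out.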
